A study of Apis cerana with 76 samples.

Results

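The miR-193 and miR-2788 entries of the Asian honey bee, Apis cerana, are 3 mature miRNAs out of 216 distinct names in the deposited count tables. They were found by name, taking either strand of each hairpin. The developmental table lists all 3 among its 146 entries: miR-193-3p, miR-2788-3p and miR-2788-5p. The organ table lists miR-193-3p and miR-2788-5p among its 171 entries. They were chosen by name with their levels and strand counts in these tables known, so levels, ratios and strand balance are given as a description and none of them is tested.

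All bees were wild type and untreated as far as the labels say, and small RNA libraries were made from Trizol-extracted total RNA of frozen, dissected material. Whether the developmental groups were whole bodies is not given in the sources used here. The developmental series covers 54 libraries in 18 groups of 3: egg, larvae (L1 to L5), pupae with white eyes (W), red eyes (R), dark red eyes (DR) and dark red eyes and body (DRB), adult workers as nurse bees (YA) and as old adults, named foragers (OA), and drones as adults (D). Queens were taken as larvae (QL), as pupae with white (QW), red (QR) and dark red eyes (QDR) and as adults (QA). The organ series covers 22 libraries in 11 groups of 2: drone brain, worker brain, drone ventriculus (midgut), worker ventriculus, drone rectum, worker rectum, queen ovary, worker ovary, drone testis, drone mucus gland and worker venom gland. The stage and organ names come from the labels and from the authors' sequencing statistics. No caste is given for the eggs and the plain larvae and pupae, and no age or number of bees per library is given. The authors deposited 1 column per group, so every level below is the authors' pooled value, without an error between libraries. The intervals given are 95% intervals for counting error alone, exact Poisson for levels and exact binomial for shares, on reads without molecular identifiers.

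A miRNA hairpin is cut into a short duplex whose 5p or 3p strand is kept in an Argonaute protein, and bases 2 to 8 of that strand, the seed, pair with target messages. The vertebrate genome carries miR-193 next to miR-365, a pair studied in mice in brown fat cells and muscle. The seeds of bee miR-193-3p and miR-2788-3p are those of vertebrate miR-193 and miR-365, and the insect pair is described as neighbouring hairpins too. Genome positions of the Apis cerana hairpins are not given in the sources used here.

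The 3 mature sequences are shown because their seeds decide which messages each strand could pair with, and because the organ entry of miR-193-3p is shorter than the developmental one. Capitals mark the seed, and every sequence is from the deposited count tables.
miR-193-3p, developmental table: uACUGGCCugcuaagucccaag
miR-193-3p, organ table: uACUGGCCugcuaaguccca
miR-2788-3p: cAAUGCCCuucgaaaucccaaa
miR-2788-5p: uGGGGUUUcuaugcggcaugug
All 3 seeds differ from each other, and 0 other entries carried any of them in the developmental table, in the organ table, in the authors' list of 178 conserved miRNAs or in their list of 13 further miRNAs. The organ entry of miR-193-3p has 20 bases and lacks the last 2 bases of the 22-base developmental entry, so its counts were not set against those of the developmental table.

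The 3p strands of both hairpins are alike inside and outside the seed. Capitals below mark the positions at which they are identical, counted from the 5′ end without gaps.
miR-193-3p: uAcUGgCCUgCuAAgUCCCAAg
miR-2788-3p: cAaUGcCCUuCgAAaUCCCAAa
They are identical at 15 of 22 positions, among them 5 of the 7 seed positions and 8 of the last 10. Of the 2701 pairs that the 74 developmental entries of 22 bases can form, 9 pairs (0.333%) are identical at 15 or more positions, and the median is 6. The miR-2788 strands pair with each other as the strands of a hairpin do: with 2 bases left free at the 3p end, 14 of 20 facing bases pair, 13 as Watson-Crick pairs and 1 as G with U. The longest unbroken run of pairs is 9 bases.

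Summed miRNA counts ran from 72873 to 19772824 over the developmental columns and from 184457 to 8476499 over the organ columns. The egg, QL, QW, QR and QA columns held 72873 to 748682 counts, and the other 13 held 3510800 or more, so the egg and most queen levels rest on few reads. Levels are CPM (counts per 1000000 miRNA counts) scaled by the trimmed mean of M-values (TMM), which corrects column totals for the miRNAs that take up most reads. All 3 miRNAs are of low abundance: by mean level miR-2788-5p was 81st, miR-193-3p 84th and miR-2788-3p 111th of 146 entries over stages. In these bulk samples fewer cells that make a miRNA and less of it per cell cannot be told apart.

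Over the life course the 3 miRNAs were low in egg and larvae and high in pupae, but the strands did not peak together. miR-193-3p and miR-2788-3p were at their highest plain level in red-eyed pupae (R), while miR-2788-5p was at its highest later, in dark-bodied pupae (DRB). The plot of stage levels shows both courses.

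**Figure D1:**
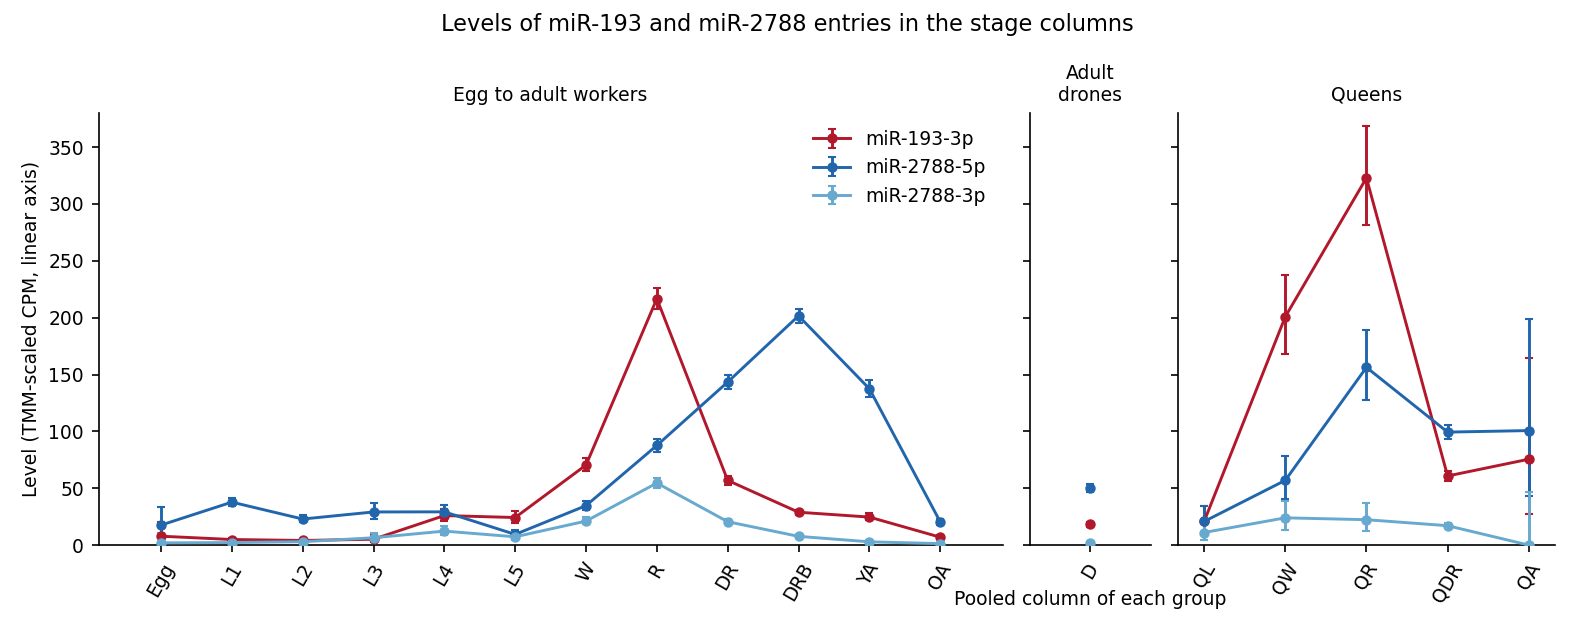
Levels (TMM-scaled CPM, linear axis) of the 3 miRNAs in each pooled developmental column, with egg to adult workers, adult drones and queens in separate panels; bars are 95% Poisson counting intervals. miR-193-3p stands highest at R (217 CPM) and QR (323 CPM), and miR-2788-5p at DRB (202 CPM).

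miR-193-3p, the strand of its hairpin that the tables list, stood at 7.81 CPM in egg on 4 counts (interval 2.13 to 19.99). Its larval levels were 4.90 CPM in L1, 4.05 in L2, 5.14 in L3, 25.96 in L4 and 24.2 in L5. The larvae thus fell into a low set, L1 to L3, and a higher one, L4 and L5, whose counting intervals did not meet. In pupae it was at 70.4 CPM in W, 217 in R, 56.9 in DR and 28.9 in DRB. Adult workers had 24.6 CPM in YA and 6.94 in OA, and adult drones 18.1 CPM. The queen columns ran at 20.7 CPM in QL, 201 in QW, 323 in QR, 60.8 in QDR and 75.5 in QA. Only QR, R and QW were above 100 CPM, all of them white-eyed or red-eyed pupae. The adult queen value rests on 6 counts, with an interval of 27.7 to 164 CPM that takes in the dark-eyed pupae of both series.

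miR-2788-3p, the strand with the miR-365-like seed, also peaked in R among the plain columns, at a lower level. It stood at 1.95 CPM in egg (1 count), 2.22 in L1, 2.98 in L2, 6.43 in L3, 12.3 in L4 and 7.27 in L5. Pupae had 21.1 CPM in W, 54.6 in R, 20.6 in DR and 7.68 in DRB, and R was the only column whose interval (50.1 to 59.3) lay above those of all others. Adults had 2.86 CPM in YA, 1.27 in OA and 1.77 in drones. Queen columns had 11.1 CPM in QL, 24.0 in QW, 22.3 in QR and 17.05 in QDR, on 8, 16, 15 and 193 counts. In QA it had 0 counts, and the floor of 3 counts there was 37.8 CPM, above the level in every other column but R, so its absence from adult queens is not shown at this depth.

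miR-2788-5p, the other strand of that hairpin, took another course. It stood at 17.6 CPM in egg (9 counts), 37.8 in L1, 22.9 in L2, 29.1 in L3, 29.2 in L4 and 9.39 in L5, its lowest level. Pupae had 34.7 CPM in W, 87.7 in R, 143 in DR and 202 in DRB, an increase at each step. Nurse workers (YA) still had 138 CPM, foragers (OA) 20.5 CPM and drones 50.2 CPM. Queen columns had 20.7 CPM in QL, 56.9 in QW, 156 in QR, 99.4 in QDR and 101 in QA, the last on 8 counts. Between DR and DRB both miR-193-3p and miR-2788-3p were lower in DRB while miR-2788-5p was higher, and none of these intervals met.

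Ordered from high to low, most neighbouring columns had overlapping counting intervals, which does not show that their levels were equal. The intervals of neighbours overlapped in 14 of 17 steps of that order for miR-193-3p, in 16 of 17 for miR-2788-3p and in 14 of 17 for miR-2788-5p. The breaks for miR-193-3p lay between QR and R, between QW and QA and between DR and DRB. Those for miR-2788-5p lay between DRB and QR, between R and QW and between D and L1.

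Within the miR-2788 hairpin, counts of the 5p strand exceeded those of the 3p strand in every developmental column, but by very different margins. The 5p share of both strands was 94.5% in L1 (interval 91.9 to 96.4), 88.5% in L2, 81.9% in L3, 70.4% in L4 and 56.4% in L5 (42.3 to 69.7). It was 62.2% in W, 61.6% in R, 87.5% in DR and 96.3% in DRB. Adult workers had 97.96% in YA and 94.2% in OA, and drones 96.6%. The strands were thus nearest to equal from L5 to R and farthest apart at both ends of the course. As a ratio, 5p counts were 1.61 times the 3p counts in R, 26.3 times in DRB and 48 times in YA.

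Queens gave 65.2% in QL, 70.4% in QW, 87.5% in QR and 85.4% in QDR. The QR share (interval 80.2 to 92.8) lay above that of plain R pupae (59.1 to 64.2), while the QW interval (56.4 to 82.0) overlapped that of W. Egg and QA held 10 and 8 counts over both strands, too few to place them.

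**Figure D2:**
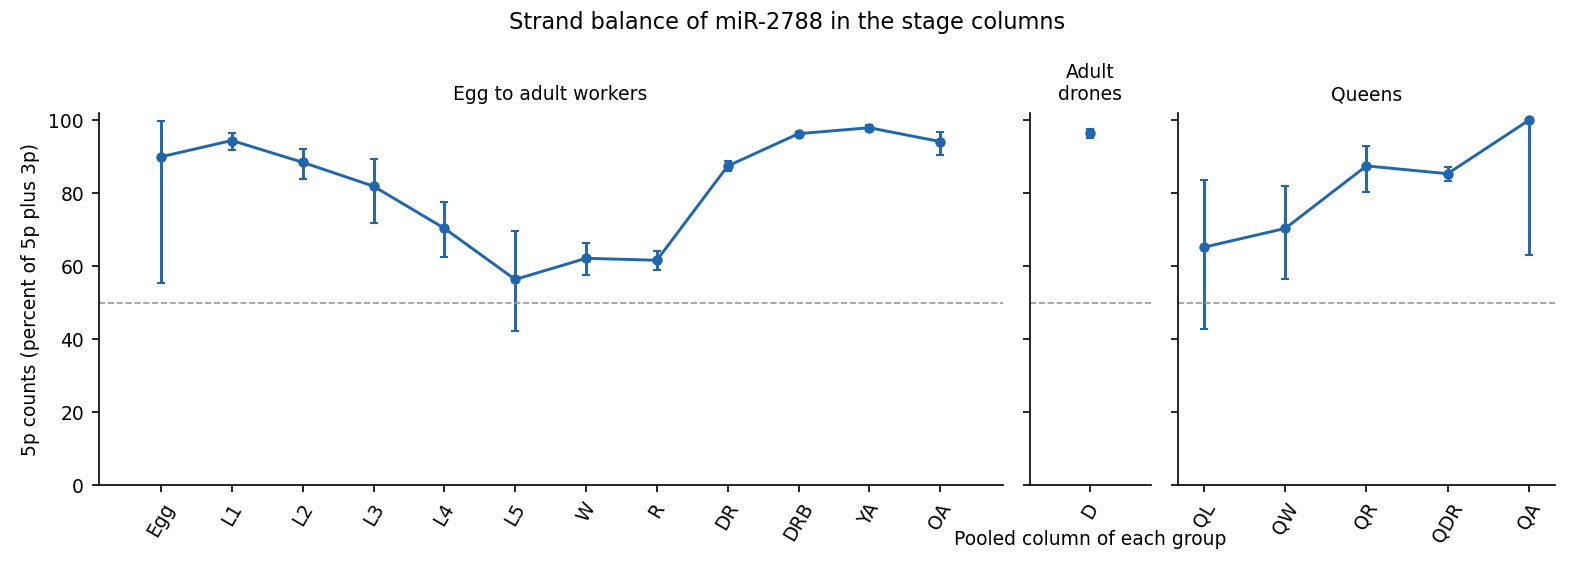
Share of miR-2788 counts on the 5p strand (percent of 5p plus 3p, axis from 0) in each pooled developmental column, with 95% binomial intervals; the dashed line marks equal strands. The share is 94.5% in L1, 56.4% in L5, 61.6% in R and 96.3% in DRB.

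Other hairpins gave a scale for that range. Of 15 hairpins with both strands listed once and at least 20 counts in 10 or more columns, miR-2788 had the 6th widest range of 5p share, 41.6 percentage points over 16 columns against a median of 20.9. In 6 of the 15 the majority strand switched between columns; miR-2788 was one of 5 that kept a 5p majority in each such column, and 4 kept a 3p majority. The widest range was that of miR-6000, at 90.2 points. A wide range was therefore not particular to miR-2788.

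The balance between the hairpins depended on which miR-2788 strand was counted, and no scaling enters these ratios of counts within a column. Against miR-2788-3p, miR-193-3p had 3.34 times the counts in W, 3.97 times in R, 2.77 times in DR and 3.76 times in DRB, a narrow range. Larvae ran from 0.800 times in L3 (12 against 15 counts) to 3.33 times in L5. In L3 the share of miR-193-3p in the counts of both was 44.4% (interval 25.5 to 64.7), which takes in equal counts. The adult columns YA, OA and D had 8.60, 5.47 and 10.3 times, while queens had 1.88 times in QL, 8.38 in QW, 14.5 in QR and 3.57 in QDR, the last within the plain pupal range. Against miR-2788-5p the ratio was 0.130 in L1 and 2.58 in L5, 2.03 in W, 2.47 in R, 0.397 in DR and 0.143 in DRB. miR-193-3p thus had more counts than miR-2788-5p only in L5, W, R, QW and QR, and in QL both had 15 counts.

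**Figure D3:**
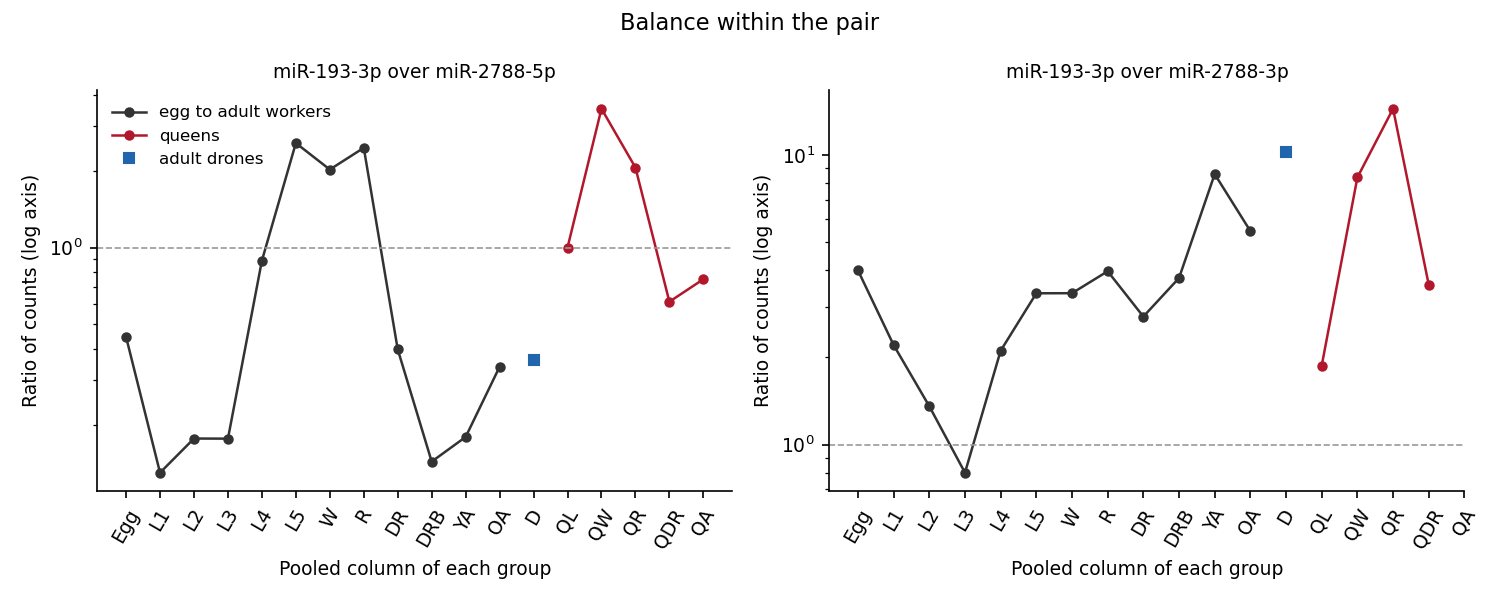
Counts of miR-193-3p divided by those of miR-2788-5p (left) and of miR-2788-3p (right) in each pooled developmental column (log axes; dashed line at equal counts); QA has no right-hand point because miR-2788-3p had 0 counts. Over plain pupae the right-hand ratio stays between 2.77 and 3.97 while the left-hand one spans 0.143 to 2.47.

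The first class comparison sets the 4 plain pupal columns beside the 5 larval ones, across the larval to pupal moult. miR-193-3p averaged 93.2 CPM over 4 pupal columns and 12.9 CPM over 5 larval columns, a log2 ratio (difference of mean log2 of CPM plus 1) of 2.79, and the columns did not overlap. miR-2788-5p averaged 117 CPM in pupae and 25.7 CPM in larvae, a log2 ratio of 2.003, but W pupae (34.7 CPM) lay under L1 larvae (37.8 CPM). miR-2788-3p averaged 25.98 CPM in pupae and 6.24 CPM in larvae, a log2 ratio of 1.78, with DRB (7.68 CPM) under L4 (12.3 CPM). A miRNA was counted as apart when it was at least 2-fold different, had 50 CPM on its higher side and its columns did not overlap. miR-2788-3p averaged under 50 CPM on both sides, so it could not meet this. In the direction of higher pupae 1 of the 3 met it, miR-193-3p, as did 11.9% of the 84 entries with 50 CPM. The levels in these columns led to the choice of the 3 miRNAs, so nothing is read from that share.

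**Figure D4:**
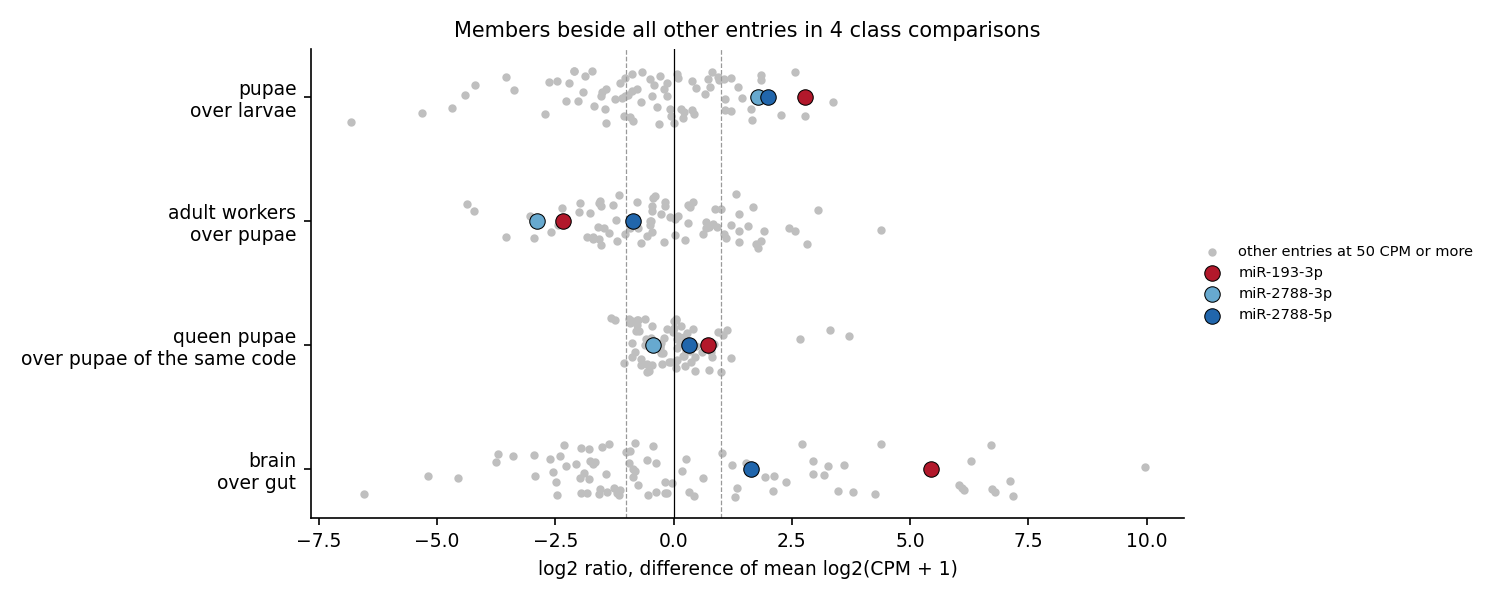
Log2 ratios (difference of mean log2(CPM + 1), positive where the first-named class is higher) of the members and of the other entries with at least 50 CPM (grey) in 4 comparisons; dashed lines mark 2-fold. All 3 members lie right of 1 in pupae over larvae, from 1.78 to 2.79, and left of 0 in adult workers over pupae, from -2.89 to -0.85.

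Some markers of other tissues also differed between these columns. The muscle markers miR-1-3p and miR-133-3p summed to 78589 to 269527 CPM in pupae and 22424 to 64506 CPM in larvae. Nearly all of that sum was miR-1-3p, while miR-133-3p alone overlapped, at 182 to 1316 CPM in pupae and 184 to 366 CPM in larvae. The 4 measured of 5 nervous system markers summed to 4375 to 6087 CPM in pupae and 1525 to 2858 CPM in larvae. Most of that sum was miR-7-5p, while miR-932-5p overlapped (20.1 CPM in R, 21.6 in L1). The 3 gut markers summed to 123 to 842 CPM in pupae and 1021 to 3175 CPM in larvae. Of these only miR-281-3p was apart. miR-281-5p overlapped (565 CPM in DRB, 520 in L5), as did miR-1175-3p (41.1 CPM in DRB, 28.5 in L5). The ovary marker miR-989-3p overlapped, at 577 to 1267 CPM in pupae and 848.5 to 1625 CPM in larvae. All measured markers were above 0 in these columns, and their part in the levels of the pair was not tested.

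Within pupae the oldest stage was set against the youngest. DRB had 28.9 CPM of miR-193-3p against 70.4 CPM in W, a log2 ratio of -1.26, and 202 CPM of miR-2788-5p against 34.7 CPM in W, a log2 ratio of 2.51. Both met the criteria, miR-193-3p as lower in DRB with 25% of 76 entries and miR-2788-5p as higher with 30.3%. Within larvae L5 had 24.2 CPM of miR-193-3p against 4.90 CPM in L1 and 9.39 CPM of miR-2788-5p against 37.8 CPM in L1, log2 ratios of 2.10 and -1.90, all under 50 CPM.

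A list of 10 miRNAs linked in insects to metamorphosis, hormones and growth gave a wider view of the same change. In pupae over larvae 1 of 10 met the same criteria higher and 3 lower, beside 11.9% and 21.4% of all entries, with a median log2 ratio of -0.59, against -0.33 over the 84 entries. The higher one was let-7-5p, which in flies times the change to adult tissues, at 107357 CPM in pupae and 19780 CPM in larvae, a log2 ratio of 2.57. The lower ones were miR-14-3p, a regulator of fat and ecdysone signalling in flies, at -1.68, miR-8-3p, a growth regulator in fly fat body, at -1.42, and miR-281-3p, at -3.38.

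The second class comparison sets both adult worker columns beside the plain pupae, across adult emergence. miR-193-3p averaged 15.8 CPM in adult workers and 93.2 CPM in pupae, a log2 ratio of -2.34, with no overlap. miR-2788-3p averaged 2.07 CPM in adult workers and 25.98 CPM in pupae, a log2 ratio of -2.89, again with no overlap, though it stayed under 50 CPM on both sides. miR-2788-5p averaged 79.0 CPM in adult workers and 117 CPM in pupae, a log2 ratio of -0.85, and it overlapped because YA workers (138 CPM) lay among the pupae. With YA left out its log2 ratio was -2.19, and with OA left out it was 0.50. In the direction of lower adults 1 of the 3, miR-193-3p, met the criteria, against 25.9% of 81 entries. Of the list of 10, 2 were higher and 4 lower, beside 12.3% and 25.9% of all entries, with a median of -1.50 against -0.44 over all 81.

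The worker columns differed from each other as well. OA foragers had lower values than YA nurses for each of the 3: 6.94 against 24.6 CPM for miR-193-3p, 20.5 against 138 CPM for miR-2788-5p, and 1.27 against 2.86 CPM for miR-2788-3p. The log2 ratios were -1.69, -2.69 and -0.77. The counting intervals of miR-2788-3p overlapped, while by counts its OA level was 0.44 times that in YA (interval 0.22 to 0.85). miR-2788-5p met the criteria lower in OA, as did 39% of 82 entries, and the median entry there stood at -0.71. Scaled to library totals alone, the log2 ratios were -0.88 for miR-193-3p, -1.82 for miR-2788-5p and -0.20 for miR-2788-3p. Adult drones lay within the range of YA and OA for all 3.

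Queen pupae were set against plain pupae of the same eye colour. miR-193-3p had 201 CPM in QW against 70.4 CPM in W, 323 CPM in QR against 217 CPM in R and 60.8 CPM in QDR against 56.9 CPM in DR. It was higher in 3 of 3 pairs, with log2 ratios of 1.50, 0.57 and 0.09, and only the last pair's counting intervals overlapped. miR-2788-5p was higher in QW (56.9 against 34.7 CPM) and QR (156 against 87.7 CPM) and lower in QDR (99.4 against 143 CPM). miR-2788-3p had 22.3 CPM in QR against 54.6 CPM in R, a log2 ratio of -1.25, and its counting intervals overlapped in the other pairs. The mean log2 ratios were 0.72, 0.33 and -0.44. Of the 3, 0 met the criteria in either direction, against 2.47% of 81 entries higher and 0% lower. miR-2788-3p could not meet them, as it averaged under 50 CPM on both sides. Overlap was judged over all eye colours together, so a miRNA higher in every pair could still fail it. QW and QR had 647990 and 690134 counts, against 6936161 or more in W, R, DR and QDR, and the part of that difference in the result was not tested.

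Queen larvae carry no larval number. Their 20.7 CPM of miR-193-3p and 11.1 CPM of miR-2788-3p lay within the larval range, as did the 20.7 CPM of miR-2788-5p. Adult queens had 75.5 CPM of miR-193-3p on 6 counts, against 24.6 CPM in YA and 6.94 CPM in OA. The criteria were met there, as by 18.6% of 86 entries, and the fold of summed counts, 4.95, had an interval of 1.81 to 10.9.

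Entries whose level over the 18 developmental columns was most like that of each member are given as a description, because the columns share libraries, totals and developmental order. For miR-193-3p the nearest of 84 entries with a mean of at least 50 CPM was let-7-5p, with Pearson's r = 0.79 and Spearman's rho = 0.79 on log2 of CPM plus 1 (r = 0.80 without QR and R). It was followed by miR-263a-5p (r = 0.67), miR-3715-5p (0.63), miR-6001-3p (0.61) and miR-9a-5p (0.56). For miR-2788-5p the nearest were miR-263a-5p (r = 0.83, rho = 0.86), let-7-5p (0.77), miR-927a-5p (0.76), miR-276-3p (0.75) and miR-927a-3p (0.68). For miR-2788-3p they were miR-9-5p (r = 0.79, rho = 0.80), miR-3715-5p (0.73), miR-100-5p (0.72), miR-6001-3p (0.71) and miR-125-5p (0.71). That order was not firm: by rho miR-100-5p was nearest (0.81), and without QA and R miR-6001-3p had r = 0.83 and miR-9-5p r = 0.74.

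Among the members, miR-193-3p had r = 0.64 with miR-2788-3p and r = 0.58 with miR-2788-5p over the 18 columns. The strands of miR-2788 had r = 0.24 with each other. Without the 2 columns farthest from the median these were 0.51, 0.49 and 0.37.

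In organs the pair was concentrated in a few columns, and not in the same ones. miR-193-3p was high in worker brain and drone testis, and miR-2788-5p in worker ventriculus, drone testis and queen ovary. The 3p strand of miR-2788 has no entry in the organ table, so strand balance was not examined there.

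miR-193-3p stood at 6.50 CPM in drone brain and 248 CPM in worker brain. It had 166 CPM in drone testis, 20.4 CPM in worker venom gland (8 counts), 3.93 CPM in queen ovary, 2.11 CPM in worker ovary (3 counts) and 0.714 CPM in drone mucus gland (5 counts). It had 0 counts in both ventriculus and both rectum columns. There the floor of 3 counts was 1.45 CPM in worker ventriculus, 2.45 CPM in drone ventriculus, 9.20 CPM in drone rectum and 14.65 CPM in worker rectum, so a level like that of drone brain was not detectable in the rectum columns. Worker brain and testis were thus the only organs above 100 CPM, and their intervals (218 to 281 and 156 to 175) did not meet. The gap depended on scaling. Worker brain and testis stood at 255 and 238 CPM by library totals, and at 368 and 126 CPM by DESeq2 size factors, another scaling.

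miR-2788-5p stood at 86.1 CPM in drone brain and 21.2 CPM in worker brain. It had 1.63 CPM in drone ventriculus on 2 counts and 1487 CPM in worker ventriculus on 3080 counts. Drone rectum had 3 counts (9.20 CPM) and worker rectum 0. Queen ovary had 437 CPM and worker ovary 4.21 CPM (6 counts). Drone testis had 632 CPM, drone mucus gland 1.57 CPM and worker venom gland 138 CPM. From high to low, worker ventriculus, testis, queen ovary, venom gland and drone brain each lay apart from the next beyond counting error. From worker brain downwards the intervals of neighbours overlapped.

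**Figure D5:**
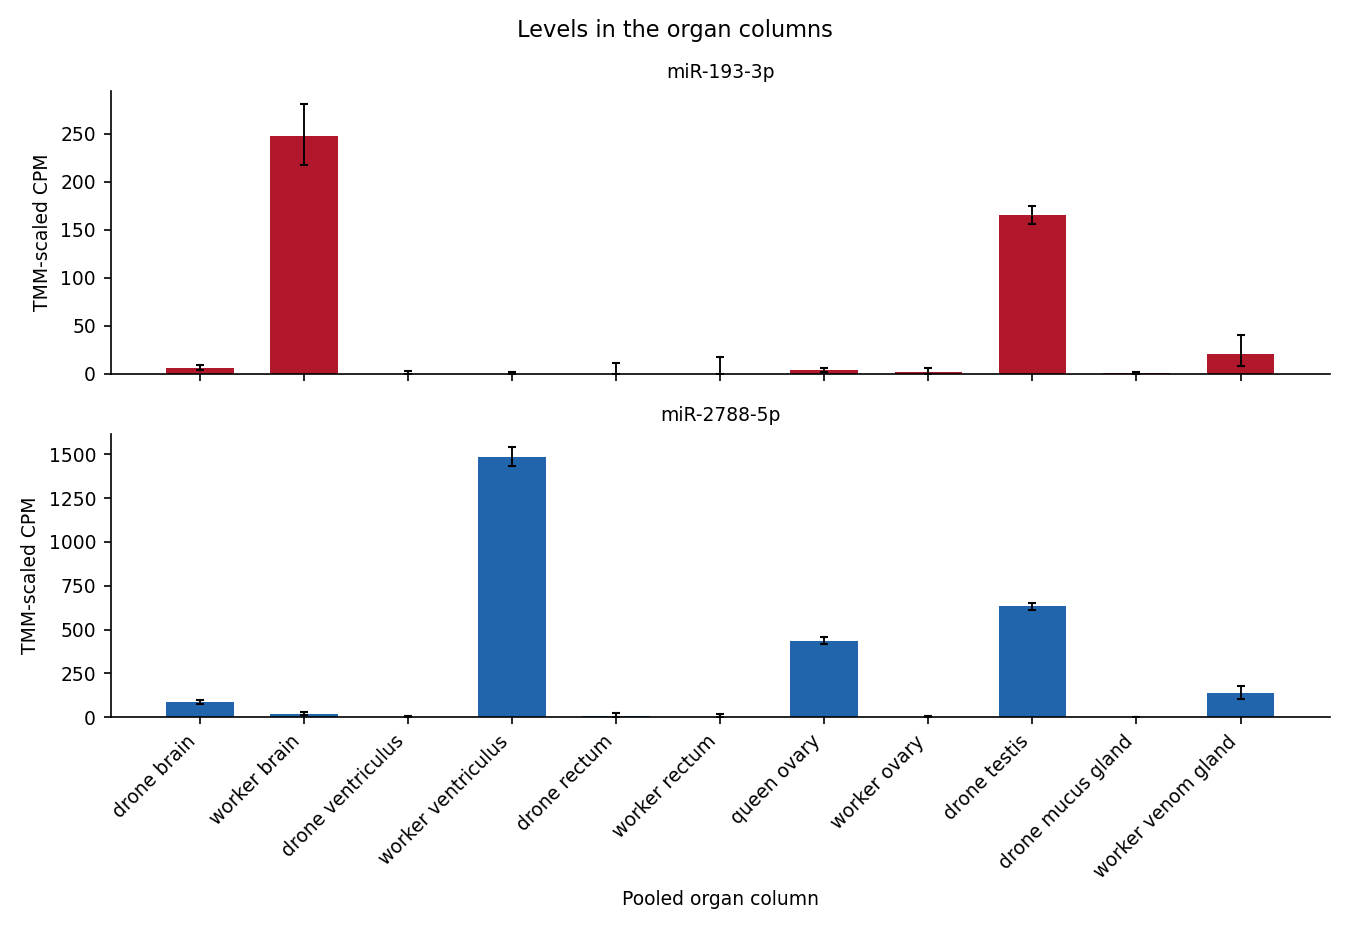
Levels (TMM-scaled CPM, axes from 0, different scales) of miR-193-3p (top) and miR-2788-5p (bottom) in the 11 pooled organ columns, with 95% Poisson counting intervals. miR-193-3p stands at 248 CPM in worker brain and 166 CPM in testis, and miR-2788-5p at 1487 CPM in worker ventriculus, 632 CPM in testis and 437 CPM in queen ovary.

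The labelled organs were checked against marker miRNAs. The gut miRNA miR-281-5p was highest in drone (7511 CPM) and worker ventriculus (8337 CPM), between 40.9 and 2162 CPM elsewhere, and the ovary miRNA miR-989-3p was highest in queen ovary (6996 CPM) and worker ovary (12156 CPM). The neural miRNA miR-932-5p was at 427 CPM in drone brain and 135 CPM in worker brain, between 1.63 and 121 CPM elsewhere. miR-7-5p was also highest there, at 4310 CPM in drone and 8354 CPM in worker brain, with 564 to 3823 CPM elsewhere. miR-9a-5p went the other way, at 1114 CPM in drone and 714 CPM in worker brain. It had 500 CPM in testis and 2912 to 21526.5 CPM in the other organs. Of 5 nervous system markers 3 were listed, and their summed level (5852 CPM in drone brain, 9203 in worker brain) was within the range of the other organs (1845 to 22361). miR-1175-3p, taken as a gut marker, went against its label, with 234 CPM in drone ventriculus and 0 counts in worker ventriculus, but 308260 CPM in queen ovary and 15747.5 CPM in testis. The muscle markers miR-1-3p and miR-133-3p summed to 17208 to 575058 CPM over organs and were present in all. What these mixtures add to the levels of the pair was not tested.

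Drone and worker columns of the same organ differed in opposite directions. In brain, miR-193-3p was lower in drones, with a log2 ratio of -5.05, and miR-2788-5p was higher, at 1.97. Lower levels in drone brain were met by 14.1% of 85 entries and higher ones by 25.9%. By size of the log2 ratio miR-193-3p was 3rd among these 85, and miR-2788-5p was 19th. The share of miR-193-3p in the counts of both was 7.02% in drone brain (interval 4.55 to 10.3) and 92.1% in worker brain (88.2 to 95.05).

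In ventriculus, miR-2788-5p had 2 counts in drones against 3080 in workers, and its CPM there was 0.0011 times the worker level (interval 0.000133 to 0.00397). Lower levels in drones were met by 9.21% of 76 entries. Of these 76, 4 were at least 100-fold apart in either direction, and miR-2788-5p was 2nd by size. miR-193-3p had 0 counts in both, and in rectum neither was above 3 counts in either column, so no ratio is given.

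Brain was set against gut, taking ventriculus and rectum of both kinds of bee. miR-193-3p had 6.50 CPM in drone brain and 248 CPM in worker brain, against 0 counts in all 4 gut columns. Its brain mean was 18.3-fold the mean of the floors of 3 counts in the gut columns (6.94 CPM). Worker brain was 16.9-fold the highest of these floors. Drone brain lay under the floors of both rectum columns, so no such fold is given for it. These folds are not lower bounds, because the counting interval of 0 counts reached above the floor, to 18.0 CPM in worker rectum. miR-193-3p met the criteria as higher in brain, as did 26.7% of 90 entries, while 22.2% met them as lower. It reached 50 CPM through worker brain alone, so meeting the criteria and the 18.3-fold mean both rest on worker brain. miR-2788-5p averaged 53.7 CPM in brain and 374 CPM in gut, while its log2 ratio, a difference of mean logs, was 1.64. That positive value turned to -0.79 in worker columns alone, where worker ventriculus held 3080 of the 3085 gut counts.

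Testis was the only organ in which both miRNAs were above 100 CPM. Against brain, ventriculus and rectum of drones, miR-193-3p had 166 CPM in testis and 0 to 6.50 CPM in the others, a log2 ratio of 6.41. miR-2788-5p had 632 CPM in testis and 1.63 to 86.1 CPM in the others, a log2 ratio of 5.58. Both met the criteria, as did 38.9% of 95 entries. In mucus gland both were under 2 CPM. In venom gland 20.4 CPM of miR-193-3p and 138 CPM of miR-2788-5p lay within the range of brain, ventriculus and rectum of workers.

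Queen ovary was set against worker ovary. miR-2788-5p had 437 CPM in queen ovary on 1556 counts and 4.21 CPM in worker ovary on 6 counts, a fold of 104 by counts with an interval of 47.5 to 283. It met the criteria, as did 50.5% of 93 entries. On the log2 of CPM plus 1 scale 11 of the 93 were at least 100-fold apart. miR-2788-5p was not one of them: on that scale its fold was 84.0, 12th by size. miR-193-3p had 14 counts in queen ovary and 3 in worker ovary, a fold of 1.87 with an interval of 0.521 to 10.1.

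Over the 11 organ columns miR-193-3p and miR-2788-5p had r = 0.40 and rho = 0.42 with each other. The entry most like miR-2788-5p was miR-2765-5p, with r = 0.85 and rho = 0.92. miR-2765-5p stood at 4.89 CPM in drone ventriculus against 25048 CPM in worker ventriculus, at 41747 CPM in testis and at 403 CPM in queen ovary. The next were miR-263a-3p (0.74), miR-29b-5p (0.60), miR-3743-3p (0.48) and miR-993-3p (0.45). For miR-193-3p the most alike were miR-2b-5p (r = 0.78, but 0.21 without worker brain and testis), miR-252a-5p (0.70), miR-3719-3p (0.68), miR-927b-5p (0.66) and miR-3786-3p (0.60).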

How the data were processed

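Small RNA libraries (54 of developmental stages, 22 of organs) were sequenced, and the authors deposited counts per miRNA in 1 column per group, with 3 libraries per stage and 2 per organ. Tools named are bcl2fastq and kallisto, per the submitters' processing notes; versions, genome build, the counting rules and how libraries were joined are not given in the sources used here. 0 value columns were left unmapped. Each table was scaled on its own by TMM (edgeR 4.0.16, R 4.3.3) on entries passing a filter at 10 counts, to CPM. Log2 ratios are differences of mean log2(CPM + 1), checked on simulated data. Intervals (95%, scipy 1.17.1) cover counting error only, and the floor is 3 counts. With pooled columns no test across groups was made. Alternatives were DESeq2 1.42.0 size factors, library totals, no filter, a pseudocount of 10 CPM, thresholds of 4-fold or 10 CPM, 100 counts for strand shares, and leaving out columns. Named miRNAs are the members, the listed and marker miRNAs and, per member and table, the 5 entries with the highest r among those with a mean of 50 CPM; the widest-ranging hairpin was named after its value was seen. Members, lists and comparisons were chosen with earlier results of these data known.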

Additional observations from a re-analysis of the deposited data

Results flagged for a closer look

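Among the 4 gut columns, miR-2788-5p in worker ventriculus, at 1487 CPM, lay far from the others, which were between 0 and 9.20 CPM. In all, 9 groups of 4 to 10 columns were examined in this way, and no chance rate is known for pooled columns of different organs. The level was known when the miRNAs were chosen, so it is a description and was not tested. The column is the authors' pooled value of 2 libraries, so whether both carried the reads is not known here.

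The difference of miR-2788-5p between drones and workers had opposite directions in 2 organs. Its log2 ratio of drones over workers was -9.14 in ventriculus (1.63 against 1487 CPM) and 1.97 in brain (86.1 against 21.2 CPM). The difference between the organs was not tested.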

How the results depend on the processing

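Of the recomputed values of class comparisons, counts and strand shares, 127 kept their direction and moved little (ratios by less than the spread between columns, 1 SD), 14 moved further and 2 changed sign. The cause was not tested. Some of the 127 could not move. Leaving out the filter did not alter the developmental scaling. Leaving out any gut column, all at 0 counts, kept miR-193-3p in brain over gut at 5.43. Both sign changes were of miR-2788-5p: brain over gut was -0.79 in worker columns alone against 1.64 reported, and adult workers over pupae was 0.50 without OA against -0.85. The spread of miR-2788-5p over gut columns is wide, and its ratio there ran from 0.36 to 3.88 leaving out 1 column at a time and was 4.07 in drone columns alone. For miR-193-3p, brain over gut was 2.71 with a pseudocount of 10 CPM, 7.96 in worker columns and 2.91 in drone columns, and 2.91 to 7.96 leaving out 1 column, against 5.43; pupae over larvae was 1.50 for W over L5 alone, a comparison chosen after seeing the data, as were the worker-only and drone-only ones. In adult workers over pupae miR-2788-3p was -1.42 with a pseudocount of 10 CPM, and miR-2788-5p ran from -2.19 to 0.50 leaving out 1 column. Of the single-column ratios and likeness values, 34 moved further, 16 of them with a pseudocount of 10 CPM and 10 with library totals. Under these settings miR-193-3p in testis over other drone organs was 3.89 and 7.05 against 6.41, and miR-2788-5p in queen over worker ovary 4.97 and 5.07 against 6.39. Sign changes of single-column ratios that had not met the criteria were not counted. Among them, with totals miR-193-3p in queen over worker ovary was -0.50 against 0.67. In larvae over egg it was -0.31 by DESeq2 and -0.80 by totals against 0.25, and miR-2788-5p -0.21 and -0.74 against 0.40. At 4-fold, 17 entries instead of 28 met the criteria in pupae over larvae, 11 instead of 31 in adult workers over pupae and 0 instead of 2 in queen over plain pupae; the last count was 5 when columns were scaled by totals, 4 by DESeq2 and 4 with the level lowered to 10 CPM. Over the 12 columns with 100 or more miR-2788 counts, the 5p share ran from 61.6% to 97.96%. No paired analysis was possible because the count columns carry no replicate numbers. Depth limits the columns with few counts, among them egg, QL, QW, QR, QA, both rectum columns, worker venom gland and worker ovary.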
